A study of Mus musculus with 11 samples.

Results

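The genes described here are those of the voltage-gated potassium channels, which were taken from the count table by name. A row was kept when its symbol started with Kcn, went on with the subfamily letter a, b, c, d, f, g, h, q, s or v and a number, and had at least 110 read counts summed over the 11 libraries. Of the 54532 rows of the table, 42 had such a symbol and 39 reached the count limit. Of these, 37 encode channel subunits and 2, Kcnd3os and Kcnq1ot1, are non-coding RNAs that carry the name of the channel gene they lie next to or within. The last genes inside the limit were Kcng3 with 119 counts and Kcnq1 with 180, and the 3 rows left out were Kcnv2 with 30 counts, Kcna7 with 4 and Kcna10 with 2. The choice used no comparison between groups.

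RNA was taken from the lateral habenula, a small nucleus of the epithalamus that fires more when an outcome is worse than predicted, in a mouse study of arthritis and depression-like behaviour. All mice were 3-month-old BALB/c animals, and no altered allele is named in the labels. In the arthritis group, called CAIA in the titles for collagen antibody-induced arthritis, 5 antibody clones against type II collagen were injected together at 50 mg/kg, and lipopolysaccharide (LPS, a bacterial cell wall product) at 1 mg/kg came 3 days afterwards. Controls were given vehicle, so the antibodies, the LPS and the arthritis cannot be told apart. The groups held 3 female controls, 3 female CAIA, 2 male controls (replicates 1 and 3) and 3 male CAIA libraries. The labels do not say that each library came from its own animal, so p-values measure only the spread between these samples, which may be technical.

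Voltage-gated potassium channels open when the membrane depolarizes and let potassium leave the cell, which ends the action potential and sets how soon the next can follow. Each channel is a tetramer of alpha subunits, mostly of 1 subfamily: Kv1 (Kcna), Kv2 (Kcnb), Kv3 (Kcnc), Kv4 (Kcnd), Kv7 (Kcnq) and the EAG family (Kcnh, which includes the Erg channels) form channels by themselves. The silent subunits (Kcnf, Kcng, Kcns, Kcnv) do so only in company with Kv2 subunits. Habenula neurons fire tonically or in bursts, and potassium currents shape both patterns.

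Total counts ran from 25317306 to 29565006 per library. Levels are given as CPM, counts scaled to library size with TMM factors, which remove composition differences, when libraries are compared. They are given as RPKM, the same value per kilobase of annotated exon, when genes are compared. Markers of the lateral habenula (5 genes, among them Gpr151 and Htr2c) summed to between 837 and 1017 CPM in all 11 libraries, and none was at 0. The 9 medial habenula markers summed to between 918 and 1343 CPM, and the 8 thalamus markers to between 1135 and 2310 CPM. The channel levels are thus those of the dissected tissue, not of the lateral habenula alone. In 2 control libraries lay the extreme values of many channel genes. Female control 1 had the highest control value of 18 of the 39 genes, while it had the highest value of 15.4% of all 19619 genes tested. Male control 1 had the lowest control value of 17 of the 39, against 28.4% of all genes. In female control 1 the 11 hippocampus and cortex markers summed to 975 CPM, against 375 to 564 CPM in the other controls, and the 6 inhibitory neuron markers to 271 CPM against 50.9 to 133 CPM. Of these, 5 of the 11 and 6 of the 6 had their highest control value there. The part of these markers in the channel values was not tested.

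In control tissue, the A-type channel gene Kcnd2 had the highest level of the 37 channel genes. Kcnd2 encodes Kv4.2, which carries a fast-inactivating current below the firing threshold, and lies on chromosome 6 (21215503 to 21729805, GRCm38). It stood at 46.6, 51.8 and 52.8 RPKM in female controls 1 to 3 and at 46.0 and 54.0 RPKM in male controls 1 and 3. Its mean of 50.2 ± 3.70 RPKM (SD, n = 5) was 11.6% of the sum over the channel genes and lay at percentile 95.8 of the genes tested. The 5 libraries were close to each other, and Kcnd2 also had the lowest biological variation of all 39 genes in the fit, at 8.80% (coefficient of variation). Of its relatives, Kcnd3 (Kv4.3) stood at 14.9 ± 1.82 RPKM and Kcnd1 (Kv4.1) at 2.80 ± 0.211 RPKM.

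Kv3 channels open and close fast and allow high firing rates, and their mean share was the largest, 24.4 ± 2.28% of the summed channel RPKM, although in female control 3 it was 20.7%, below the 22.2% of the Kv2 and silent subunits together. Kcnc2 (Kv3.2) stood at 38.4, 48.5 and 23.8 RPKM in the female controls and 38.5 and 41.2 RPKM in the male controls. Female control 3 was the lowest. Kcnc1 (Kv3.1) was lowest in the same library, at 20.7 RPKM against 29.2 to 36.0 RPKM in the other 4, with a mean of 30.2 ± 5.88 RPKM. In female control 3 the 8 thalamus markers were also lowest, at 1135 CPM in sum against 1646 to 2310 CPM in the other controls, and their part was not tested. Kcnc4, the fast-inactivating Kv3.4, had a mean of 14.6 ± 1.24 RPKM.

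Kv1 channels sit along axons and near the spike initiation zone and hold down excitability. Kcna2 led them, with 36.9, 42.2 and 32.2 RPKM in female and 28.5 and 38.8 RPKM in male controls. Kcna6 followed at 15.7 ± 2.42 RPKM. Kcna1, which forms mixed channels with Kcna2, was lower, at 10.6, 9.61 and 7.05 RPKM in female and 4.76 and 8.53 RPKM in male controls. Its lowest value was in male control 1, which also held the lowest value of Kcna3, 3.05 RPKM against 7.16 to 10.4 RPKM in the others. Kcna4 was at 8.46 ± 1.5 RPKM and Kcna5 at 0.882 ± 0.0824 RPKM. As a subfamily, Kv1 made up 17.6 ± 1.26% of the sum.

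Kv2 is the main delayed rectifier of neuronal cell bodies. Of its genes, Kcnb2 was at 1.19 ± 0.203 RPKM. Kv7 channels carry the M-current, a slow brake on repeated firing that muscarinic receptors switch off. The Kv7 share was 8.87 ± 0.426%, and 17.8% when levels were not divided by gene length. Kcnq3, a subunit of the neuronal M-channel, stood at 11.8 ± 2.12 RPKM and Kcnq5 at 2.68 ± 1.10 RPKM, and Kcnq1, known from heart and epithelia, was at 0.177 ± 0.0831 RPKM.

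Of the EAG family, Kcnh2 (Erg1), known for cardiac repolarization, was the leading member, at 31.6, 39 and 31.3 RPKM in female and 38.8 and 36.6 RPKM in male controls. It provided most of a family share of 12.9 ± 1.2%. The other 7 had means between 1.17 and 5.64 RPKM, and Kcnh3 (3.58 ± 6.06 RPKM) had an SD above its mean, with its one high value in female control 1. The silent subunits and the Kv2 subunits with which they assemble together held 20.4 ± 1.54%. Kcng4 (Kv6.4) was the leading silent member, at 31.7, 31.0 and 36.7 RPKM in female and 34.9 and 35.8 RPKM in male controls. Kcns2 followed at 13.1 ± 1.29 RPKM and Kcnf1 at 12.2 ± 3.53 RPKM, the latter with a low value of 6.48 RPKM in female control 3. The remaining 6 silent subunit genes were at or below 2.47 RPKM.

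**Figure D1:**
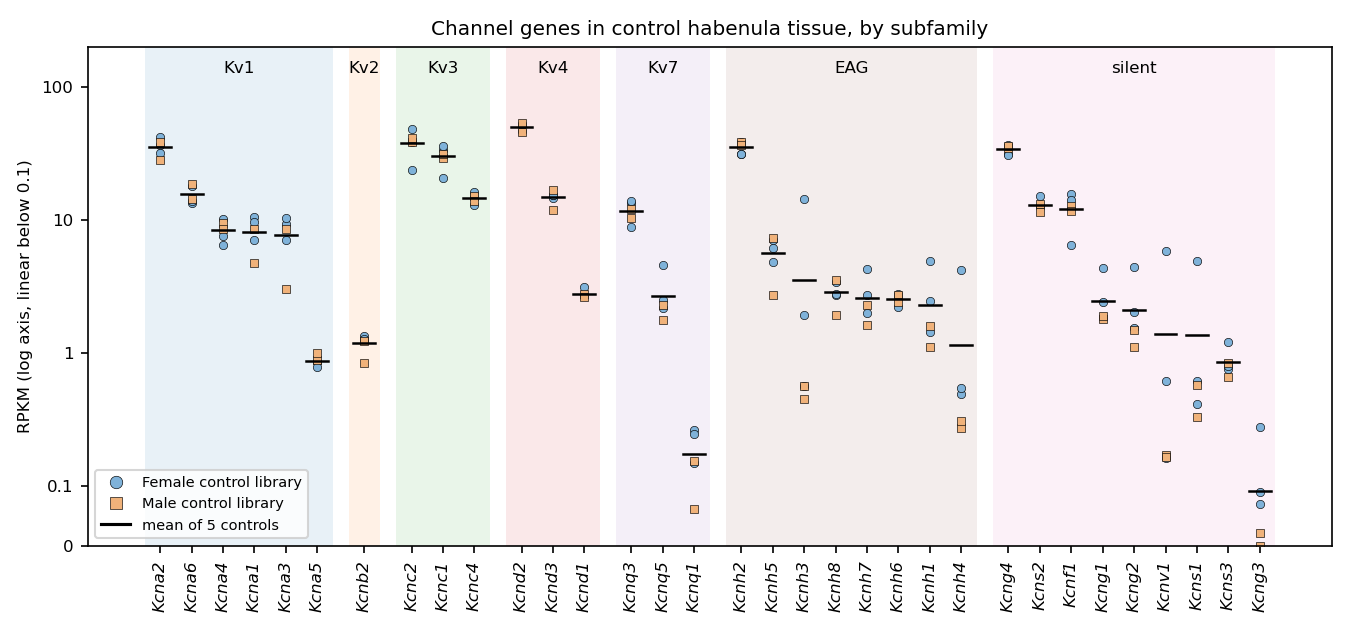
Level of 33 channel genes in the 5 control libraries (RPKM, log axis that turns linear below 0.1), by subfamily and in order of the mean (black bar); circles are female and squares male libraries. Kcnd2 is highest at a mean of 50.2 RPKM, and Kcnh3, Kcnv1, Kcns1 and Kcnh4 each have 1 female library far above the others.

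The first 6 genes by mean level, Kcnd2, Kcnc2, Kcna2, Kcnh2, Kcng4 and Kcnc1, held 51.5% of the summed channel RPKM. Among the 36 pairs of neighbours in the order of the 37 channel genes, only Kcns3 and Kcnq1 had ranges over the 5 controls that did not meet. For the other 35 pairs the ranges met. Within libraries the order was firmer for some of them: in 6 of the 36 pairs the first gene was above the next in each of the 5 controls, as Kcnd2 was above Kcnc2, Kcnq3 above Kcna4 and Kcna3 above Kcnh5. Subfamily shares moved little between groups. In CAIA libraries (n = 6) Kv3 held 24.6 ± 0.948%, Kv1 18.0 ± 0.582%, Kv4 16.6 ± 0.789%, Kv2 with the silent subunits 20.1 ± 0.83%, EAG 12 ± 0.488% and Kv7 8.77 ± 0.396%. The differences from the control means were all within 1 SD of the controls. Summed over the 37 genes, the level was 434 ± 41.4 RPKM in controls (n = 5) and 443 ± 23.1 RPKM in CAIA (n = 6), and single libraries lay between 385 and 477 RPKM.

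**Figure D2:**
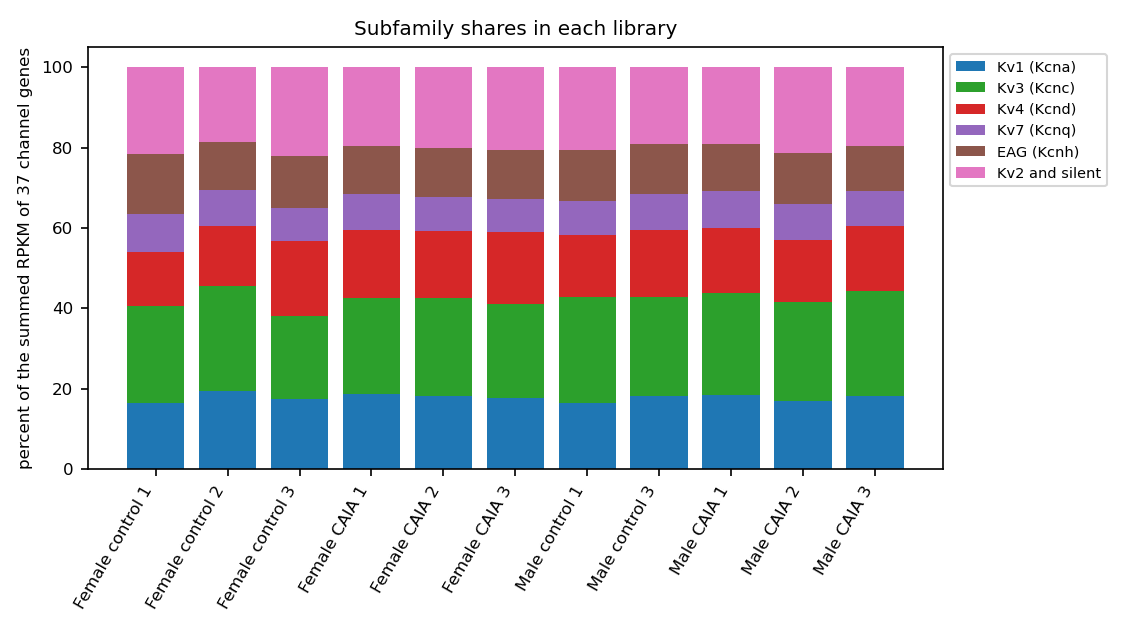
Share of each subfamily in the summed RPKM of the 37 channel genes (percent), as 1 stacked bar per library, with Kv2 and the silent subunits in 1 class. The Kv3 share lies between 20.7% and 26.4% and is lowest in female control 3, and Kv7 is the smallest class in each of the 11 libraries.

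The question of the study's comparison is which transcripts differ between CAIA and control tissue. None of the 39 genes passed an adjusted p of 0.05 with the sexes weighted equally, where 0.596% of all genes tested did (edgeR's quasi-likelihood test with Benjamini-Hochberg adjustment over 19619 genes). These were 4 genes higher in CAIA (0.0204%) and 113 lower (0.576%). DESeq2 and limma-voom also called 0 of the 39. At an unadjusted p under 0.05 there were 5 of the 39, against 6.36% of all genes. No gene of the 39 had CAIA and control libraries that did not overlap, where 0.168% of all genes lay wholly higher in CAIA and 1.01% wholly lower. The median log2 fold change was 0.0305, and 23 of the 39 were positive, against a median of 0.0002 and 50% positive over all genes. Without male control 1 the median was -0.0091, with 19 positive. In tissue RNA, fewer cells of a type and less RNA per cell cannot be told apart. The 95% interval of the difference lay within 1.25-fold in either direction for 13 of the 39 genes, within 1.5-fold for 23 and within 2-fold for 30, against 47.1%, 68.7% and 84.7% of all genes. For the remaining genes the interval reached beyond 2-fold.

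Kcnd2 had the smallest standard error of the 39 genes. It stood at 240, 267 and 272 CPM in female controls and 237 and 278 CPM in male controls, and at 294, 268 and 300 CPM in female and 290, 268 and 253 CPM in male CAIA libraries. Of the 6 CAIA libraries, 3 lay above all controls and the other 3 within the control range, so the groups overlapped. The log2 fold change was 0.11 ± 0.07 (SE here and below). Kcnd3 was at 0.15 ± 0.08, and its lowest library was male control 1, at 114 CPM against 140 to 165 CPM in the other 10. Without male control 3 it was at 0.30 ± 0.06 and was the only one of the 39 to pass (edgeR adjusted p = 0.0452), since male control 1 then stood alone for its group; without male control 1 it was at 0.03.

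Values close to 0 were found for abundant members of the other subfamilies. Kcna2 had a log2 fold change of 0.03 ± 0.10, Kcnc2 of 0.04 ± 0.15 and Kcnc1 of -0.04 ± 0.12. The M-channel gene Kcnq3 was at 0.04 ± 0.12, Kcnh2 at -0.04 ± 0.08 and Kcng4 at -0.08 ± 0.08. For Kcnq3 the 95% interval of the fold ran from 0.858 to 1.23, and for Kcnh2 from 0.869 to 1.09. The signs of Kcna2, Kcnc1, Kcnc2, Kcnq3 and Kcnh2 each turned when some single library was left out.

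The 5 genes with an unadjusted p under 0.05 were Kcng2, Kcnc4, Kcnb2, Kcna5 and Kcng3, all with a positive log2 fold change. For Kcng3 it was 1.73 ± 0.79 over both sexes (edgeR adjusted p = 0.779), but -0.386 ± 0.795 in females. Kcng3 had 119 counts in all, and the 33 in male CAIA 2 brought it over the limit of 110. Female control 1, at 0.934 CPM, was above every CAIA library except male CAIA 2, at 1.30 CPM. Kcng2, a silent subunit (Kv6.2), stood at 6.15, 4.59 and 13.2 CPM in female and 4.48 and 3.33 CPM in male controls, and at 11, 8.34 and 5.67 CPM in female and 10.2, 17.3 and 11.1 CPM in male CAIA libraries. Female control 3 was above all but 1 of the CAIA libraries. Female control 1 was above 1 of them, and the remaining controls were below all of them. The log2 fold change was 0.89 ± 0.31 (edgeR adjusted p = 0.591). Kcnc4 went from 53.7 ± 4.55 CPM (n = 5) to 62.3 ± 6.78 CPM (n = 6), a log2 fold change of 0.22 ± 0.08 (edgeR adjusted p = 0.613). Kcnb2 was at 0.25 ± 0.10 (adjusted p = 0.692) and at 0.12 without male control 1 or 0.41 without male control 3, with its lowest value of 12.8 CPM in male control 1 and all other libraries between 18.4 and 22.9 CPM.

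Kcna5 (Kv1.5) was even in controls, at 2.25 to 2.89 CPM, and spread out in CAIA, at 2.95, 4.67 and 3.06 CPM in females and 2.21, 6.05 and 3.31 CPM in males. Of the 6 CAIA libraries, 5 were above all controls and 1 was below them. Its log2 fold change was 0.54 ± 0.23 (edgeR adjusted p = 0.731), and 0.29 without male CAIA 2. Next in order of p, but with an unadjusted p above 0.05, came Kcnd3, Kcng1 (0.31 ± 0.19), Kcna1 (0.27 ± 0.16), Kcnd2 and Kcnh4 (-0.94 ± 0.63). The values of Kcnd3 and Kcnd2 are given above. Kcng1 was at 0.20 without female control 2 and 0.52 without female control 3. Kcna1 was at 0.08 without male control 1 and 0.52 without male control 3, and Kcnh4 at -0.07 without female control 1. The non-coding RNAs were at -0.38 ± 0.31 for Kcnd3os and -0.10 ± 0.26 for Kcnq1ot1. Kcnq1ot1, which is transcribed from within Kcnq1 on the other strand, stood at 44.5 CPM in male control 3 and 46.4 CPM in male CAIA 2, against 16.7 to 29.3 CPM elsewhere.

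**Figure D3:**
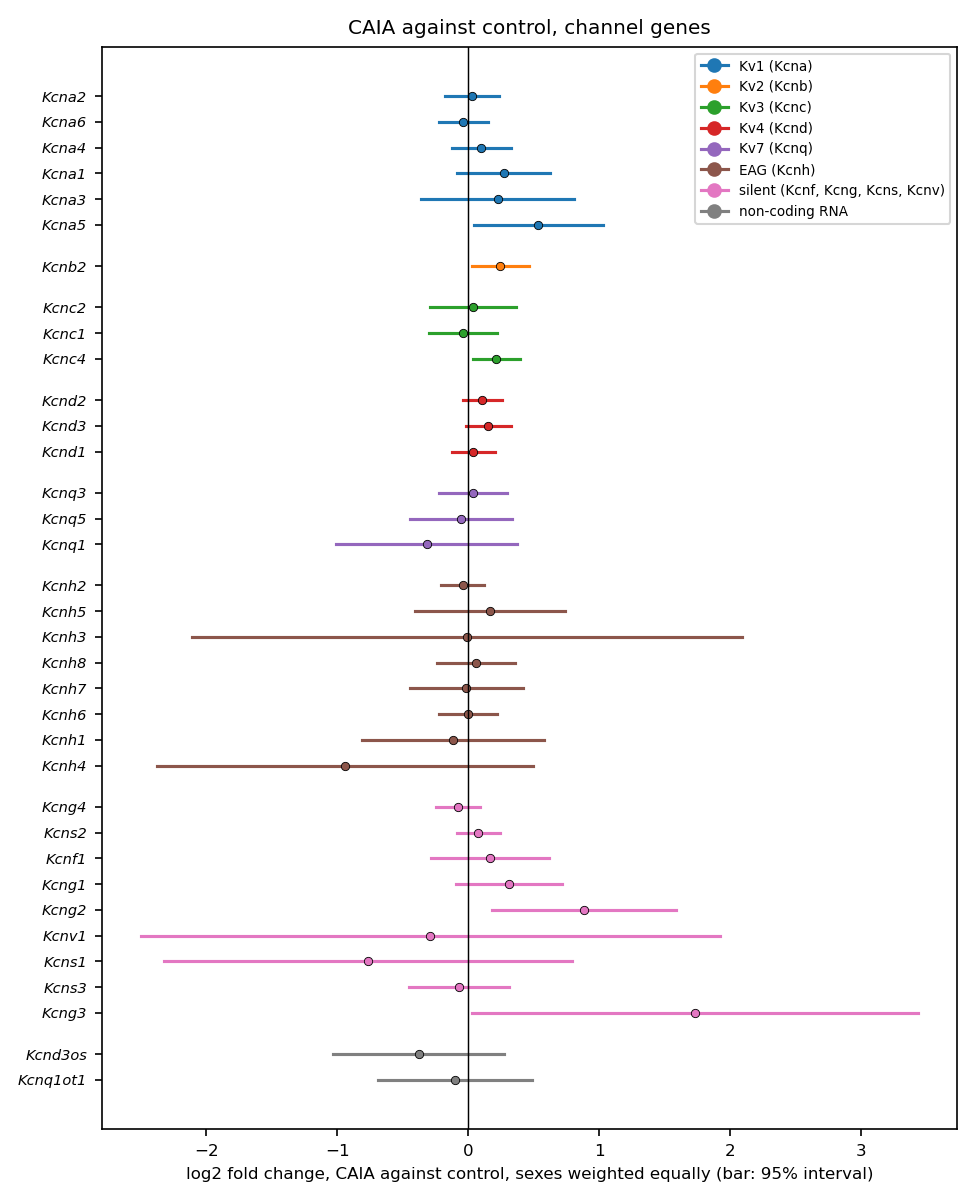
Log2 fold change of 35 of the 39 genes, CAIA against control with the sexes weighted equally (point), with its 95% interval (bar), in order of control level within a subfamily. Most points lie near 0, and the widest bars belong to Kcnh3, Kcnh4, Kcns1, Kcnv1 and Kcng3.

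The widest intervals came from genes that were high in female control 1. Kcnh3, an EAG family gene of the forebrain, stood at 82.7 CPM in that library, at 3.30 and 11.2 CPM in the other female controls and at 3.27 and 2.61 CPM in the male controls. Kcnv1, a silent subunit (Kv8.1), was at 26.8 CPM there and between 0.746 and 2.83 CPM in the other 4. Kcns1 (Kv9.1) was at 13.4 CPM against 0.905 to 1.69 CPM, and Kcnh4 at 16.6 CPM against 1.09 to 2.18 CPM. All 4 thus stood far above the other controls, and the M-channel gene Kcnq5 was highest there too, at 35.4 CPM against 13.8 to 19.3 CPM. No CAIA library reached these values: the highest was 18.4 CPM for Kcnh3, 3.04 CPM for Kcnv1, 1.87 CPM for Kcns1 and 1.74 CPM for Kcnh4. The cortical layer marker Tbr1 was also highest in female control 1, at 43.4 CPM against 0.760 to 20.3 CPM in the other 10 libraries. Of the 11 hippocampus and cortex markers, Tbr1 among them, 5 had their highest control value there and the rest in another control. The A-type channel partner Kcnip2 was at 60.4 CPM there, though female control 3 was also high at 48.5 CPM.

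**Figure D4:**
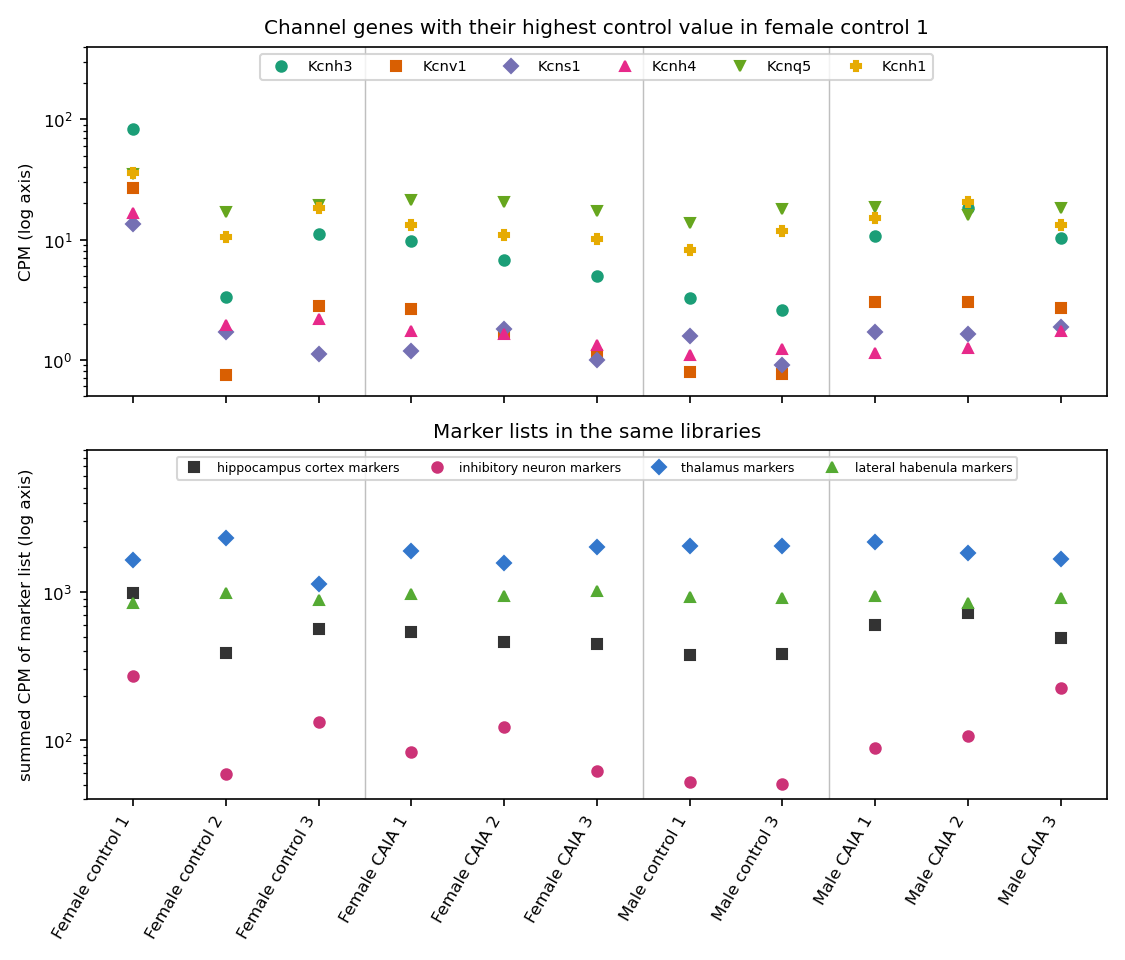
CPM of 6 channel genes (upper panel) and summed CPM of 4 marker lists (lower panel) in each of the 11 libraries, both on log axes; vertical lines separate the groups. Female control 1 holds the top value of each channel gene shown and of the hippocampus and cortex and the inhibitory neuron markers, while the lateral habenula markers stay between 837 and 1017 CPM.

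The bases just before the start site are shown for Kcns1 and Kcnq5, which were high together in female control 1, and for Kcng4, which was steady in all libraries. The sequences are those of RefSeq (GRCm38.p6), in which 25 of the 39 genes had an entry, 250 bases upstream of the start on the strand of the gene; capitals mark each CANNTG, the E-box read by basic helix-loop-helix factors.
Kcns1, chr2:164171114-164171363, minus strand: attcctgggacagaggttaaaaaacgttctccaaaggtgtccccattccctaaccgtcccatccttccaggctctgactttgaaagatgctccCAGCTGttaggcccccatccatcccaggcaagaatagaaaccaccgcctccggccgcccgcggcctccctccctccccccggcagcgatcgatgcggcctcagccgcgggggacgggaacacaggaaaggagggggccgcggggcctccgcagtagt
Kcnq5, chr1:21961943-21962192, minus strand: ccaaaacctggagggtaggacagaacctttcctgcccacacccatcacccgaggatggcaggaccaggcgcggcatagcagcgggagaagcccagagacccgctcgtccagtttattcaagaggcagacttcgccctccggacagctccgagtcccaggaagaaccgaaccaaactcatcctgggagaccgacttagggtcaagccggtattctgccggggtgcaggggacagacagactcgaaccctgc
Kcng4, chr8:119635681-119635930, minus strand: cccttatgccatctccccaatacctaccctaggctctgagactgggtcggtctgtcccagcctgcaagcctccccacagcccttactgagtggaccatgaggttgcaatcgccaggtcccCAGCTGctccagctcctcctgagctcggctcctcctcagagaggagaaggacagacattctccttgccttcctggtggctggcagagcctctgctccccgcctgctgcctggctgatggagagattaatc
Kcns1 and Kcng4 each held 1 CANNTG and Kcnq5 none, searched on both strands (the motif is its own reverse complement), while 66.2% of 32851 promoter windows of this length held at least 1. Neither TATAAA (12.4% of windows) nor TGACGTCA (1.55%) was present in the 3. Kcns1 had 17 CpG and Kcnq5 14, and Kcng4 had 4, near the median of 6. Kcnq5 had another entry, not shown, with its start 708 bases further upstream (window chr1:21962651-21962900), and that window held 3 CpG. These are descriptions of the letters in the window and of nothing else.

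In females, none of the 39 genes passed, where 0.26% of all genes did (edgeR; 1 gene or 0.0051% higher in CAIA and 50 or 0.255% lower). At an unadjusted p under 0.05 there were 4, all lower in CAIA, against 5.22% of all genes. Kcnh4 was at 16.6, 1.96 and 2.18 CPM in female controls and 1.74, 1.64 and 1.34 CPM in female CAIA libraries, a log2 fold change of -2.13 ± 0.79 (edgeR adjusted p = 0.814). Without female control 1 it was at -0.39. Kcns1 was at -2.01 ± 0.88 and at -0.07 without that library, and Kcnh1, an EAG channel gene, at -0.93 ± 0.40 and -0.34. Kcnv1, next in order of p but with an unadjusted p above 0.05, was at -2.49 ± 1.13 and went to 0.0033. All of these differences were thus mostly carried by 1 library. Kcnq1 was not: it was at 1.09, 1.02 and 0.613 CPM in female controls and 0.285, 0.523 and 0.515 CPM in female CAIA. The log2 fold change was -1.03 ± 0.42 (edgeR adjusted p = 0.833) and stayed between -1.25 and -0.79 when any 1 library was left out. These levels rest on few reads, 28, 26 and 18 counts in controls and 8, 15 and 15 in CAIA, so counting error weighs on each. Female CAIA 1, the lowest, lay apart from the other CAIA libraries. Kcnq1 and Kcnh4 were the 2 genes whose female groups did not overlap with CAIA lower (6.39% of all genes), and Kcna5 and Kcnd3 the 2 with CAIA higher (5.08%). The median over the 39 was -0.0641, with 17 positive, against -0.0015 and 49.5% positive over all genes. Without female control 1 the median was 0.0114, with 24 positive, against 0.0125 over all genes.

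In males, again none passed, and neither did any other gene (0% called at adjusted p under 0.05 by edgeR; 0 of 19619). DESeq2 called 71 genes in males and limma-voom 0, none of them among the 39. An unadjusted p under 0.05 was reached by 6 of the 39, against 5.63% of all genes, all higher in CAIA. They included the silent subunit genes Kcng1, Kcng2 and Kcng3, though not the more abundant Kcng4. Kcng2 went from 4.48 and 3.33 CPM in male controls to 10.2, 17.3 and 11.1 CPM in male CAIA libraries, a log2 fold change of 1.72 ± 0.48 (edgeR adjusted p = 0.640). Kcng1 went from 8.13 and 8.61 CPM to 13.3, 15.5 and 15.2 CPM (0.81 ± 0.28, adjusted p = 0.725). Neither gene's groups overlapped, although female control 3, at 13.2 CPM for Kcng2 and 19.6 CPM for Kcng1, was as high as male CAIA. Kcng3 had 0 and 2 counts in the male controls and 8, 33 and 5 in male CAIA, a ratio of 15.7 per total count with a counting interval of 4.11 to 134 (95%, exact), which covers counting error only.

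Kcna1 went from 22.8 and 40.8 CPM to 53.1, 54.9 and 42.9 CPM in males (0.66 ± 0.24, edgeR adjusted p = 0.795), and Kcnb2 was at 0.40 ± 0.15 and Kcnc4 at 0.29 ± 0.12. Without male control 1, Kcna1 was at 0.30 and Kcnb2 at 0.14. Of the 39 genes, 33 had a positive male log2 fold change and the median was 0.1601, against 49.8% positive and a median of -0.001 over all genes. Without male control 1 these were 22 positive and a median of 0.0411, so the excess rested largely on that library. The male groups did not overlap for 13 genes with CAIA higher, where 9.18% of all genes did so, and for 1, Kcnh2, with CAIA lower, where 8.51% did.

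When the male libraries were fitted alone, 3 of the 38 genes tested passed, where 0.229% of all 18790 genes tested in that fit did (43 genes): Kcng2 (1.72, edgeR adjusted p = 0.0202), Kcnh3 (2.16, adjusted p = 0.0110) and Kcnv1 (1.9, adjusted p = 0.0223). Their fold changes were those of the joint fit, and the difference is in the spread, since the joint fit also takes in the female controls, in which these genes varied most. Kcnh3 was at 3.27 and 2.61 CPM in male controls and 10.8, 18.4 and 10.3 CPM in male CAIA, and Kcnv1 at 0.790 and 0.760 CPM and 3.04, 3.02 and 2.70 CPM. Beside these values, 9 of the 11 hippocampus and cortex markers were higher in every male CAIA library than in both male controls, where 9.18% of all genes were. Their summed levels were 489 to 715 CPM against 375 and 379 CPM, and none was at 0 in any library. Of the 6 inhibitory neuron markers, 4 were higher in the same way (89.0 to 224 CPM in sum against 50.9 and 52.2 CPM). Their part in the result was not tested.

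**Figure D5:**
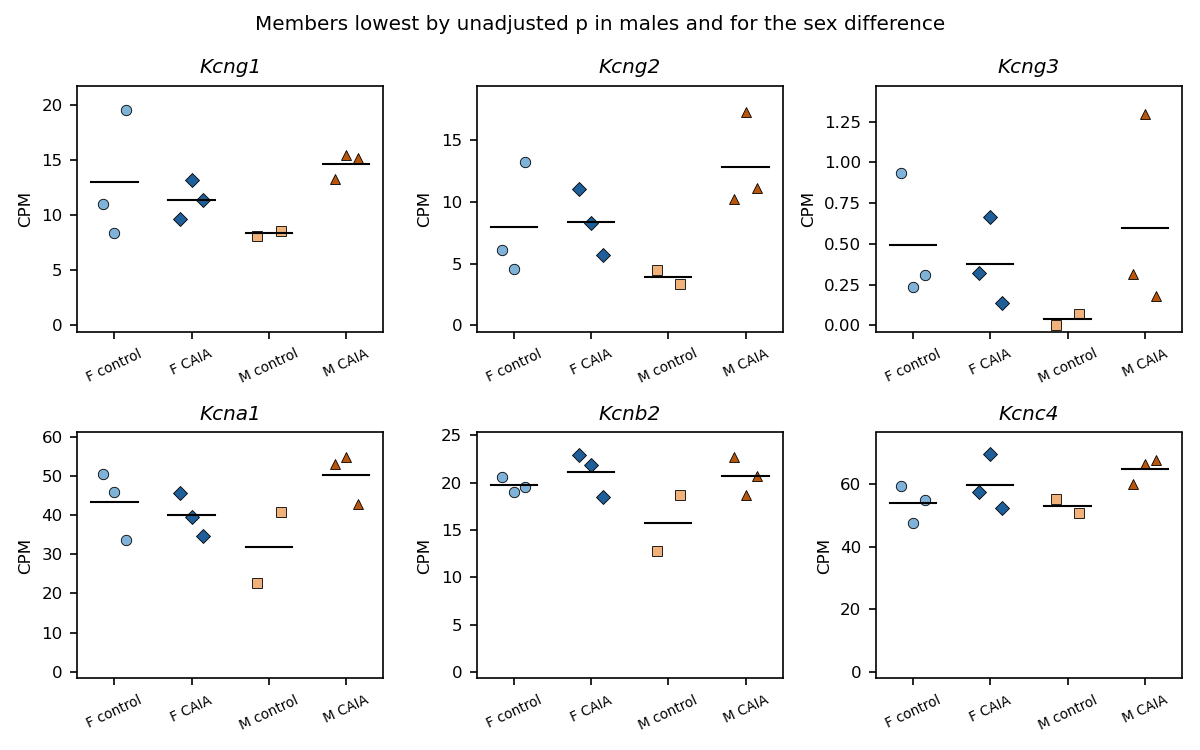
CPM of the 6 genes with an unadjusted p under 0.05 in males, in the 4 groups (points are libraries, bars are group means, F is female and M is male). Male CAIA points lie above both male controls for each gene, while the female groups overlap; the unadjusted p-values came from the joint fit and no gene passed after adjustment.

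The difference between the female and the male effect was tested as an interaction. It passed for none of the 39 genes and for no other gene (0%, edgeR; DESeq2 called 2 genes and limma-voom 0, none of the 39), and an unadjusted p under 0.05 was reached by 8 of the 39, against 4.11% of all genes. All 8 had a lower effect in females: Kcng1 (-1.0 ± 0.37), Kcng2 (-1.67 ± 0.62), Kcng3 (-4.24 ± 1.56, a fitted value that depends on the prior count), Kcnh1 (-1.62 ± 0.62), Kcna1 (-0.78 ± 0.32), Kcnh3, Kcnq1 and Kcnv1, each with an adjusted p of 0.978. The 5 values given here each moved by over 1.5 times with 1 library left out. Without female control 3, Kcng1 was at -0.58 and Kcng2 at -1.09, and without female control 1 Kcnh1 was at -1.03. Without male control 1 Kcna1 was at -0.42, and without male control 3 it was at -1.27 and Kcng3 at -7.40. The effects of the sexes are therefore not shown to differ for any channel gene. With female control 1 and male control 1 both left out, 18 of the 39 differences were positive, against 11 with all libraries and 48% of all genes.

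Channel partners were read from a list of auxiliary subunits, of which 15 were in the table and 13 were tested. Kcne2, which encodes a small beta subunit that assembles with Kcnq1 and Kcnh2 products, was the only gene of the list to pass. It stood at 11.6, 15.4 and 19.5 CPM in female and 14.1 and 16.6 CPM in male controls, and at 0.285, 0.523 and 0.343 CPM in female and 0.671, 7.15 and 2.48 CPM in male CAIA libraries. Every CAIA library was below every control, as for 1.01% of all genes. The log2 fold change was -3.74 ± 0.52 (edgeR adjusted p = 0.0249), and the adjusted p rose above 0.05, to at most 0.109, in 8 of the 11 fits that left out 1 library. Choroid plexus markers moved with it: all 13 were lower in each CAIA library than in the controls of the same sex. Of all genes, 6.39% were so in females and 8.51% in males. The sum of the markers was 2680 to 5577 CPM in controls and 248 to 2100 CPM in CAIA. Male CAIA 2 was the highest CAIA library for these and for Kcne2. None of these markers was at 0, and their part in the Kcne2 difference was not tested.

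Of the channel genes whose products assemble with that of Kcne2, Kcnq1 had a log2 fold change of -0.32 ± 0.32 over both sexes and Kcnh2 of -0.04 ± 0.08, and neither passed (edgeR adjusted p = 0.940 and 0.971). The Kcnq1 value was 0.08 without male control 1 and -0.57 without male control 3. In females Kcnq1 was lower in each CAIA library than in each control, as given above, and Kcne2 was too. Of the other auxiliary subunits, Kcne4 was at -0.41 ± 0.19 (adjusted p = 0.779) and Kcne1l at 0.27 ± 0.13 (adjusted p = 0.781). The A-type channel partners Dpp6, at 364 to 426 CPM, and Dpp10, at 144 to 186 CPM, kept narrow ranges over all 11 libraries, as Kcnd2 did. None of the 12 clustering and scaffold genes passed; the lowest p-values were those of Lgi1 (0.13 ± 0.06), Cntnap2 (0.10 ± 0.09) and Lgi2 (0.08 ± 0.08). None of 11 calcium-activated potassium channel genes passed (median -0.0183), nor did any of 12 two-pore potassium channel genes tested (median -0.0575), against 0.596% of all genes.

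Some values could hold reads of a neighbour. Whether the counting used strand is not given in the sources used here. Reads from genes on opposite strands that share exon bases therefore cannot be separated. Kcna6 shares 39.6% of its exon length with Gm26673, which had 65 counts in all. Kcnd3os, with 230 counts, shares 12.2% of its exons with Kcnd3, which had 45108, and Kcnq1 shares 3.0% with Kcnq1ot1. For Kcnd3os in particular the counts cannot be assigned to the non-coding RNA with certainty.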

How the data were processed

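RNA was sequenced in 11 libraries from mouse lateral habenula, which were grouped by the sex and treatment in their titles and characteristics. The authors deposited raw read counts per gene, and cutadapt 1.9.1, HISAT2 2.0.5, featureCounts 1.5.0-p3 and GRCm38 are named in the submitters' processing notes. The deposited counts, 25317306 to 29565006 per library, were used unchanged, and all 54532 rows named a gene. No pair of libraries within a group agreed within sampling noise (chi-square over its degrees of freedom was 6.59 to 27.67), so each counted as 1 replicate.

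Genes were filtered with filterByExpr by group (19619 left, minimum count 10), scaled by TMM, and fitted as 4 group means in edgeR 4.0.16 (R 4.3.3; glmQLFit, robust, 7 residual degrees of freedom, glmQLFTest). The Benjamini-Hochberg adjustment covered all genes tested, with a threshold of 0.05. Standard errors are the log2 fold change over the square root of F. The table holds no gene length, so RPKM used the union of exons in GENCODE M21 (GRCm38), which matched 54495 identifiers; the release the authors used is not given in the sources used here. Same-numbered control and CAIA libraries did not deviate together (correlations of -0.206 to 0.032), so numbers were not taken as pairs. The fit was also run on simulated counts, and the outcome is not given here and not used above.

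Named with values were the genes that passed, the 10 lowest p over both sexes, the 5 lowest in each other comparison, the highest of each subfamily, a set of well-known members, and partner genes that passed or were among the 3 lowest p of their list. Some genes this covers are not reported here, though the counts and sums include them. Genes high in female control 1, Kcnh3 and Kcnq5 among them, were added after their values were seen. Members and lists were chosen with earlier results of these data known. Also tried were DESeq2 1.42.0, limma-voom (limma 3.58.1), different size factors and count filters, a replicate block, an additive model, each sex alone, each library left out and, chosen after seeing the data, female control 1 and male control 1 left out together.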

Additional observations from a re-analysis of the deposited data

Results flagged for a closer look

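In 11 cases a single library lay far from the others of its treatment, by Dixon's test of the gap over the range at 95%. Chance gives about 1 in 20 groups. Among the 5 controls, 9 of the 39 genes (23.1%) had such a library, against 8.04% of all genes tested, and 5 of the 9 were in female control 1. There the EAG family gene Kcnh3 was at 82.7 CPM (2.61 to 11.2 CPM in the other controls), Kcnh4 at 16.6 CPM (1.09 to 2.18 CPM), the silent subunit genes Kcnv1 at 26.8 CPM (0.746 to 2.83 CPM) and Kcns1 at 13.4 CPM (0.905 to 1.69 CPM), and the Kv7 gene Kcnq5 at 35.4 CPM (13.8 to 19.3 CPM). Female control 3 was high for Kcng1, at 19.6 CPM (8.13 to 11 CPM), and for Kcng2, at 13.2 CPM (3.33 to 6.15 CPM). Female control 2 was high for Kcnd1, at 16.7 CPM (14.0 to 14.8 CPM). Male control 1 was low for Kcnb2, at 12.8 CPM (18.6 to 20.6 CPM). Among the 6 CAIA libraries, 2 of the 39 genes (5.13%) had such a library, against 5.90% of all genes. Kcnh2 was low in male CAIA 3, at 146 CPM (165 to 177 CPM), and Kcnq1 in female CAIA 1, at 0.285 CPM (0.515 to 0.628 CPM).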

How the results depend on the processing

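The count of channel genes that passed stayed at 0 in all comparisons with other size factors, DESeq2, limma-voom, a mean of at least 1 CPM, the replicate block (0 genes in each of the 4 comparisons), the additive model, females alone and the 2 control libraries left out. Without a filter on low counts it was 3 over both sexes, 5 in females, 7 in males and 9 for the sex difference. That fit had 246900 total degrees of freedom and smaller standard errors for the channel genes that passed in it. For some others the standard error was larger, as for Kcnd2 over both sexes (0.0765 against 0.0699). Among all genes it called 470, 452, 423 and 316. With males alone, 3 channel genes passed, and 43 among all genes. Leaving out 1 library gave 0 to 1 over both sexes, the 1 being Kcnd3 without male control 3, and 0 in the other comparisons. Calls among all genes ranged from 43 to 180 over both sexes, 0 to 104 in females and 0 to 142 in males. When 1 library was left out, the following log2 fold changes over both sexes changed sign, with these ranges: Kcna2 -0.080 to 0.16, Kcnc1 -0.15 to 0.035, Kcnc2 -0.085 to 0.16, Kcnh2 -0.072 to 0.017, Kcnq1 -0.57 to 0.076, Kcnq1ot1 -0.34 to 0.27, Kcnq3 -0.057 to 0.11, Cntnap2 -0.032 to 0.27 and Lgi2 -0.047 to 0.24. In females, Kcnv1 ran from -3.03 to 0.0033. With both control libraries left out, Kcna2 was at -0.081, Kcnq1 at 0.15, Cntnap2 at -0.044 and Lgi2 at -0.058, and 18 channel genes were positive for the sex difference. Kcne2 also missed the threshold under the additive model (-3.51) and with both controls left out (-3.88). Without length scaling, control shares were 9.36% for EAG, 19.3% for Kv1, 13.2% for Kv4, 17.8% for Kv7 and 16.9% for Kv2 with the silent subunits. At the depth of these libraries the limit lies with the rarest genes, such as Kcng3 with 0 to 33 counts per library.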
